A study of Homo sapiens with 12 samples.

Results

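MT-ATP8 and MT-ATP6 encode subunits of the mitochondrial ATP synthase, and MT-CYB encodes cytochrome b, the only subunit of respiratory complex III made inside the mitochondrion. The 3′ ends of their RNAs were followed through STAU1 and GFP pull-downs and through polysome fractions of HEK293T cells, a human embryonic kidney line. Members were chosen by place and read number: sites on the plus strand of hg19 chromosome M (16571 nt), in the window from 8360 to 9209 for MT-ATP8 and MT-ATP6 or from 14740 to 15920 for MT-CYB, with at least 10 reads in any library of a table. The pull-down table held 48 such sites among 640413, namely 16 in the MT-ATP8 and MT-ATP6 window and 32 in the MT-CYB window. The fraction table held 42 among 189010, namely 11 and 31. Of the 48, 43 had a fraction-table member within 24 nt, and 13 lay at exactly the same position in both tables.

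3′READS+ sequences RNA just before the poly(A) tail and counts 3′ ends, 1 per read, which lets sites be compared without a length correction. All 8 pull-down libraries came from STAU1-knockout HEK293T cells (line C8, made with paired Cas9 nickases), which transiently expressed either STAU1-FLAG or FLAG-GFP. STAU1 (Staufen1) is a protein that binds double-stranded RNA, and GFP served as an unrelated tagged protein. Anti-FLAG pull-down (IP) and input RNA of total lysate gave the groups STAU1 IP, STAU1 input, GFP IP and GFP input, with 2 libraries each. The fraction libraries came from wild-type cells (the protocol names an isogenic control line, C9) and from the knockout, with cytoplasmic and polysomal RNA in 1 library each and no transfection named in their labels. Both lines are single named lines, so knockout and line cannot be told apart, and the labels do not say whether replicates came from separate cultures, so the spread behind the p-values may be technical.

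The plus strand of human mitochondrial DNA is read into long RNAs that carry the rRNAs, most tRNAs and most mRNAs end to end. Excision of the tRNAs cuts the mRNAs free, and a mitochondrial poly(A) polymerase then tails them, which for several mRNAs completes the stop codon. MT-ATP8 and MT-ATP6 share 1 RNA with overlapping reading frames, and that RNA adjoins the one for MT-CO3, a cytochrome oxidase subunit, with no tRNA between them. In RefSeq's gene order, taken by position without regard to strand, MT-ATP8 stands between a lysine tRNA gene (TRNK) and ATP6, and ATP6 is followed by COX3. CYTB stands between the glutamate and threonine tRNA genes (TRNE and TRNT) in that order, which does not say on which strand each tRNA gene lies. Mitochondrial mRNAs are translated inside the organelle, on its own ribosomes.

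In hg19 the MT-ATP8 frame ran from 8367 to 8573, the MT-ATP6 frame from 8528 to 9208 and the MT-CYB frame from 14748 to 15888, and the ATP8 and ATP6 frames overlapped by 46 nt. Sites within 30 nt of the ATP6 or CYB coding end are called end sites here and all other members internal. In the pull-down table there was 1 ATP6 end site, at 9206, which is 2 nt before the coding end. The CYB window held 2 end sites, at 15888, the coding end itself, and at 15859. One site of the CYB window lay outside the reading frame: 14746, which is 2 nt before the CYB coding start. RNAs ending there stop short of MT-CYB, so it is described apart from the 29 internal sites inside the frame, a split made after its values had been seen.

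A single position held nearly all ATP6 ends. The site at 9206 took between 96.3% and 97.9% of the window's member reads in all 8 pull-down and input libraries. It was the 5th most-read plus-strand mitochondrial site of the pull-down table, with 139230 reads, and the 2nd of the fraction table, with 176815 reads. The site at 15888 was the 6th and 4th, with 121567 and 65667 reads. The other CYB end site, 15859, had between 0 and 18 reads in any library and was not tested. Just outside the 30 nt limit, the ATP-window site at 9177 had between 0 and 78 reads.

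Almost no reads ended at the MT-ATP8 coding end. The 2 members within 30 nt of it, 8563 and 8589, together held between 0 and 48 reads per library. Their share of the window's reads was highest in STAU1 IP replicate 2, at 0.247% (95% exact binomial interval 0.123 to 0.442), and GFP IP replicate 1 had 0 of 1535 reads, which allows a share of up to 0.195% if the limit is set at 3 reads (the exact interval reaches 0.24%). In the fractions 1 member, 8569, lay within 30 nt, and its share ran from 0.00886% in wild-type polysomes to 0.0215% in wild-type cytoplasm. A further site there, 8603, had at most 9 reads in any fraction library and was left out by the read minimum. Reads were amplified by PCR and carry no molecular identifiers, so these intervals and limits hold for counting error alone.

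**Figure D1:**
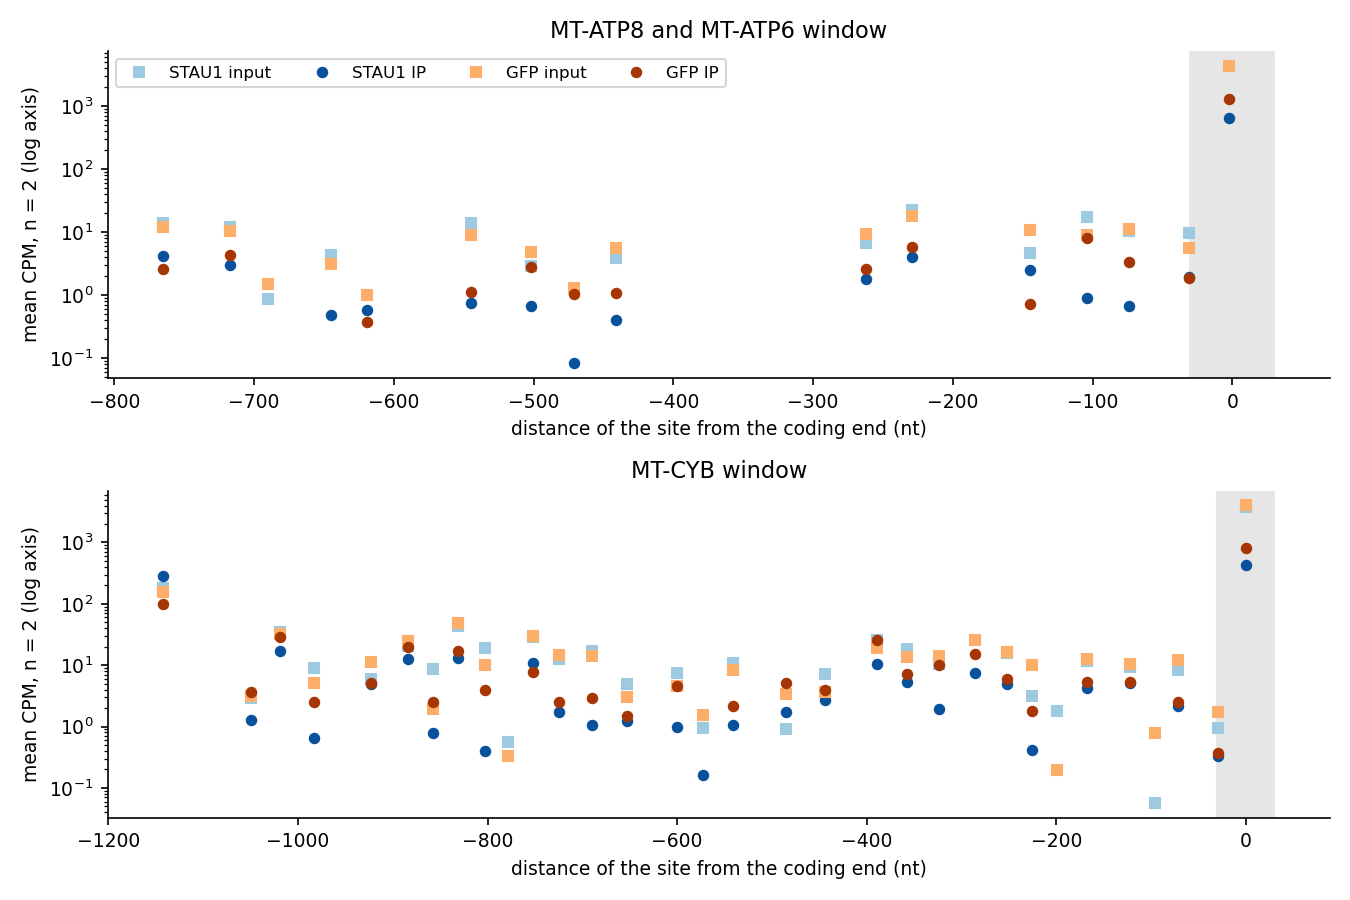
Mean CPM over 2 libraries (log axis, TMM-scaled) at each member of the pull-down table, against distance from the ATP6 coding end (top) or the CYB coding end (bottom) in nt; squares are inputs and circles pull-downs, grey marks 30 nt on either side of the coding end, and means of 0 are not drawn. One site at each coding end stands far above the internal sites, and in the CYB window the leftmost site, just before the coding start, is the next highest.

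Total reads were 1245270 to 1291888 in the GFP pull-downs and 5567893 to 9655646 in the other 6 libraries, so the GFP pull-down values rest on the fewest reads. Plus-strand mitochondrial reads made up 2.47% to 2.69% of the 4 pull-down libraries and 5.85% to 6.59% of the 4 inputs. Library pairs of 1 group differed beyond counting noise in all 4 groups and were kept as separate replicates. Sites come without gene names, so the STAU1 transcript and markers of the labelled cell line were not analysed here.

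The ends of both mRNAs were depleted from the STAU1 pull-down. At the ATP6 end, 9206, the level in CPM (counts scaled to library size, with TMM factors) was 4288 and 4446 in STAU1 input replicates 1 and 2 and 572 and 706 in the STAU1 IP replicates. Both pull-down libraries were far below both inputs. The log2 change was -2.77 ± 0.21 (SE, n = 2 per group; adjusted p = 2.84e-07 by edgeR's quasi-likelihood test with Benjamini-Hochberg adjustment over all 33744 tested sites).

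The CYB end, 15888, fell as well. Its CPM was 3857 and 3657 in the STAU1 inputs against 407 and 458 in the STAU1 IP libraries, again with no overlap. The log2 change was -3.12 ± 0.24 (SE, n = 2 per group; edgeR adjusted p = 2.84e-07).

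The unrelated GFP pull-down was depleted of the same ends. At 9206 the GFP inputs stood at 3543 and 5087 CPM and the GFP IP libraries at 1039 and 1545 CPM. At 15888 the GFP inputs stood at 2960 and 5045 CPM and the GFP IP libraries at 653 and 998 CPM. The GFP groups did not overlap at either site, and the GFP inputs differed from each other by more than the STAU1 inputs did. The log2 changes were -1.74 ± 0.20 at 9206 (SE, n = 2 per group; edgeR adjusted p = 2.51e-05) and -2.28 ± 0.23 at 15888 (edgeR adjusted p = 6.7e-06).

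The double ratio, the STAU1 change minus the GFP change, was negative at both ends and did not pass the threshold of 0.05. It was -1.03 ± 0.28 at the ATP6 end (log2, SE, n = 2 per group; edgeR adjusted p = 0.109) and -0.84 ± 0.31 at the CYB end (edgeR adjusted p = 0.288). The ATP6 end passed under several other settings: with RLE scaling it was -1.17 (edgeR adjusted p = 0.0347), with library totals -1.21 (0.0312) and in DESeq2 -1.17 (adjusted p = 0.000352). Without GFP input replicate 2, the library with the highest ATP6 and CYB ends, the double ratios were -1.29 and -1.25 and both passed (edgeR adjusted p = 4.52e-06 and 2.62e-05). Leaving out GFP IP replicate 2 gave -0.62 and -0.39 instead (0.771 and 0.943). The ATP6 end also passed without STAU1 IP replicate 2 (-1.14), STAU1 input replicate 1 (-1.02), STAU1 input replicate 2 (-0.89) or GFP IP replicate 1 (-1.25), so 5 of the 8 single libraries left out brought it past the threshold. The inputs of the 2 tags differed by 0.02 ± 0.20 at the ATP6 end and by -0.09 ± 0.22 at the CYB end (log2, STAU1 over GFP; edgeR adjusted p = 1 for both, n = 2 per group).

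**Figure D2:**
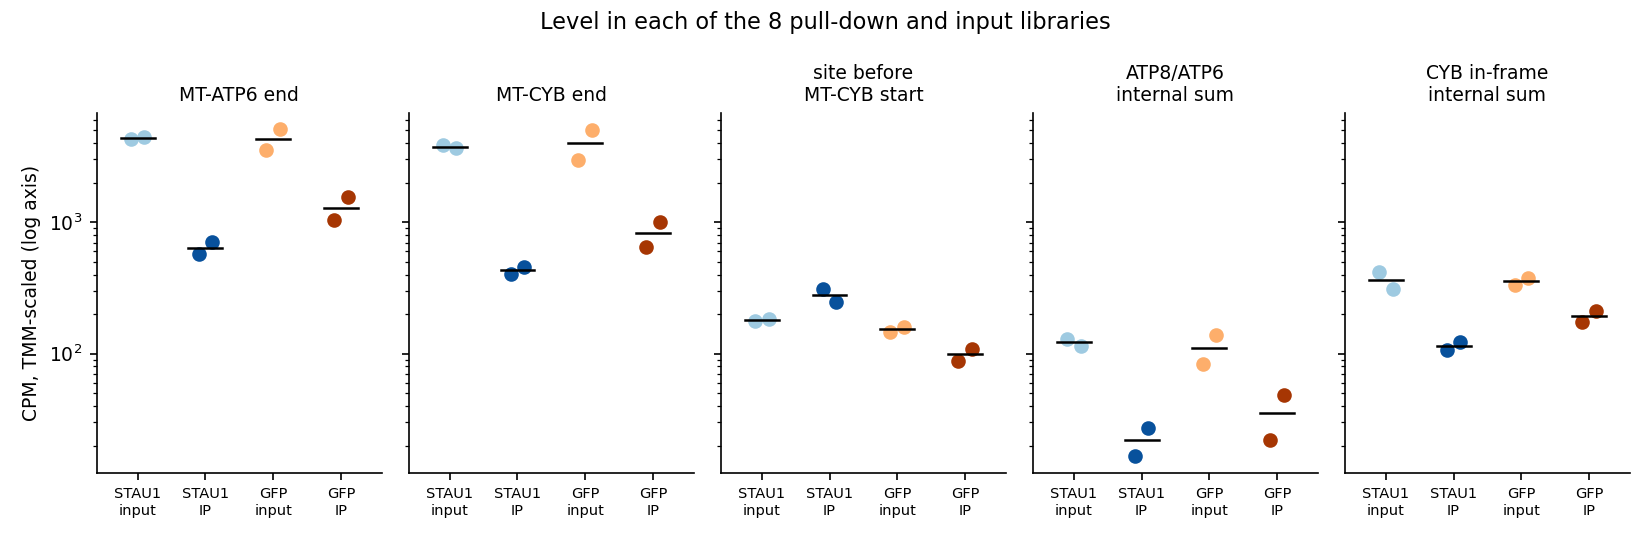
CPM (log axis, TMM-scaled) in each of the 8 libraries at the ATP6 end, the CYB end, the site before the CYB start and the sums of internal reads; each dot is 1 library and each bar the mean of 2. Both ends and both internal sums are lower in either pull-down than in its input, while the site before the CYB start is higher in STAU1 IP (310 and 248 CPM) than in STAU1 input (179 and 182 CPM).

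The site at 14746, before the CYB start, had values of the opposite sign to those of the CYB end with STAU1. Its CPM was 310 and 248 in the STAU1 IP libraries against 179 and 182 in the STAU1 inputs, so both pull-downs were above both inputs. In the GFP libraries the order was the other way round, with 88.5 and 109 CPM in the pull-downs and 147 and 159 CPM in the inputs. The log2 change was 0.63 ± 0.20 with STAU1 (SE, n = 2 per group; edgeR adjusted p = 0.081) and -0.63 ± 0.21 with GFP (edgeR adjusted p = 0.0986). The double ratio was 1.26 ± 0.29 (edgeR adjusted p = 0.0564). None of these 3 values passed the threshold. Other settings brought each of them past it. The STAU1 value passed with library totals (0.76, edgeR adjusted p = 0.0203) and in DESeq2 (0.65, adjusted p = 0.0119). The GFP value passed with no read filter (-1.07) and without STAU1 input replicate 1 or 2 (-0.75 each). The double ratio passed in DESeq2 (1.13, adjusted p = 0.00276) and, in edgeR, with no read filter (1.48) and with a replicate block (1.26, edgeR adjusted p = 0.0185). In edgeR it also passed without any 1 of 4 single libraries: STAU1 IP replicate 2 (1.46), STAU1 input replicate 2 (1.38), GFP input replicate 1 (1.41) or GFP input replicate 2 (1.23). Without GFP IP replicate 1 it was 1.14 (edgeR adjusted p = 0.311), the highest adjusted p among the alternatives.

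Relative to the CYB end within the same library, 14746 gave 0.652 ± 0.156 reads per CYB-end read in STAU1 IP (mean ± SD, n = 2) and 0.0481 ± 0.0025 in STAU1 input. In GFP IP the ratio was 0.123 ± 0.018 and in GFP input 0.0406 ± 0.0129. Both pull-downs thus had a higher ratio than their inputs, with no overlap. The mean log2 difference between pull-down and input over the 2 tags was 2.68 (exact permutation p = 0.0556, two-sided, labels exchanged within a tag; 0.0695 adjusted over 5 such measures). With 36 arrangements, 0.0556 is the smallest p this design can give, and within 1 tag it is 0.333.

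Inside the ATP8 and ATP6 frames, the internal reads fell together with the end. Summed over 15 internal sites they gave 130 and 114 CPM in the STAU1 inputs and 16.5 and 27.2 CPM in the STAU1 IP libraries. The log2 change of the sum was -2.48 ± 0.34 with STAU1 (SE, n = 2 per group; edgeR adjusted p = 0.000136) and -1.67 ± 0.35 with GFP (edgeR adjusted p = 0.00546). The double ratio was -0.81 ± 0.48 (edgeR adjusted p = 0.571). The end share of the window's reads accordingly moved little: 96.7% ± 0.63 in STAU1 IP, 97.3% ± 0.31 in STAU1 input, 97.4% ± 0.66 in GFP IP and 97.5% ± 0.24 in GFP input (SD, n = 2 each). The pull-down minus input difference over both tags was -0.30 percentage points (exact permutation p = 0.389).

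Inside the CYB frame, internal reads also fell. Summed over 29 sites they gave 418 and 312 CPM in the STAU1 inputs and 106 and 123 CPM in the STAU1 IP libraries, and 334 and 376 CPM in the GFP inputs against 176 and 211 CPM in the GFP IP libraries. The log2 change with STAU1 was -1.67 ± 0.21 (SE, n = 2 per group; edgeR adjusted p = 5.21e-05) and with GFP -0.88 ± 0.21 (0.0131), and the double ratio was -0.79 ± 0.29 (0.286). With 14746 added, as the window alone would have it, the internal sum changed by only -0.47 ± 0.18 (edgeR adjusted p = 0.156), so 1 site outside the frame decided that value. The sum with 14746 changed by -0.80 ± 0.19 with GFP (edgeR adjusted p = 0.012), and its double ratio was 0.33 ± 0.26 (edgeR adjusted p = 0.712).

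The CYB end share was lower in the pull-downs. Over the frame and the end it was 79.1% ± 0.38 in STAU1 IP and 91.2% ± 1.4 in STAU1 input, and 80.7% ± 2.7 in GFP IP and 91.5% ± 2.3 in GFP input (SD, n = 2 each). The share was lower in every pull-down library than in every input, by 12.1 percentage points with STAU1 and 10.8 with GFP. The mean difference of -11.4 points had an exact permutation p of 0.0556, the smallest possible (0.0695 adjusted over the 5 measures). With 14746 counted, the share was 52.4% ± 4.1 in STAU1 IP and 87.4% ± 1.1 in STAU1 input. It was 73.5% ± 3.2 in GFP IP and 88.2% ± 3.1 in GFP input, for a mean difference of -24.9 points (exact permutation p = 0.0556).

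The ATP6 end stood higher relative to the CYB end in every pull-down library than in every input. There were 1.47 ± 0.10 reads at the ATP6 end per read at the CYB end in STAU1 IP and 1.57 ± 0.03 in GFP IP (SD, n = 2 each). The inputs stood at 1.16 ± 0.07 and 1.10 ± 0.13, below all 4 pull-down libraries (mean log2 difference 0.43, exact permutation p = 0.0556, adjusted 0.0695). Across the 8 libraries the 2 ends otherwise moved together, with a Pearson r of 0.996 on log2 CPM. That correlation is given as a description, since the libraries fall into pull-downs and inputs and share their scaling. The r of 14746 with the ATP6 and CYB ends was -0.26 and -0.20.

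Site by site, 40 of the 48 members had enough reads to be tested, 13 in the ATP window and 27 in the CYB window. With STAU1, 14 were called lower and 0 higher, 5 in the ATP window and 9 in the CYB window. The background over all 33744 tested sites was 2.99% called lower and 3.06% called higher. Without STAU1 IP replicate 1 the count fell to 8, and without STAU1 input replicate 2 it was 21. Library totals and DESeq2 each gave 1 higher call, at 14746. With GFP, 4 were lower and 0 higher, against a background of 3.99% and 2.11%: the ATP6 and CYB ends and the CYB internal sites 15057 and 15136. The GFP count was 2 without GFP input replicate 2. It was 8 and 10 without STAU1 IP replicates 1 and 2, 9 without GFP IP replicate 2, and 11 without either STAU1 input replicate. A site that passed the read filter mainly through its inputs was bound to lean lower, so the counts describe the tested sites and do not stand for all members.

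The median log2 change of the 40 tested members was -2.01 with STAU1 and -1.30 with GFP, beside 0.12 and -0.16 over all tested sites. Here too a site that passed the read filter mainly through its inputs was bound to lean lower, so the medians describe the tested sites only. The 401 other tested plus-strand mitochondrial sites had medians of -1.48 and -1.50, with 121 called lower and 1 higher with STAU1 and 85 and 0 with GFP. Of these 401, 347 had a negative value with STAU1 and 379 with GFP. The median double ratio was -0.83 among members, -0.04 among the other plus-strand sites and 0.30 over all sites.

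No tested member passed in the double ratio in the edgeR fit of all 8 libraries with TMM scaling and the read filter, against a background of 0.53% higher and 0.157% lower. At an unadjusted p under 0.05 there were 7 of 40, beside 11.1% of all tested sites. DESeq2 called 3, namely 9206 and 9104 lower and 14746 higher, and other edgeR settings called between 0 and 5. Between the 2 inputs no member passed in edgeR or DESeq2, and 0 of 40 had an unadjusted p under 0.05, beside 4.02% of all tested sites. The background of adjusted calls there was 0.00889% higher and 0.0% lower.

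**Figure D3:**
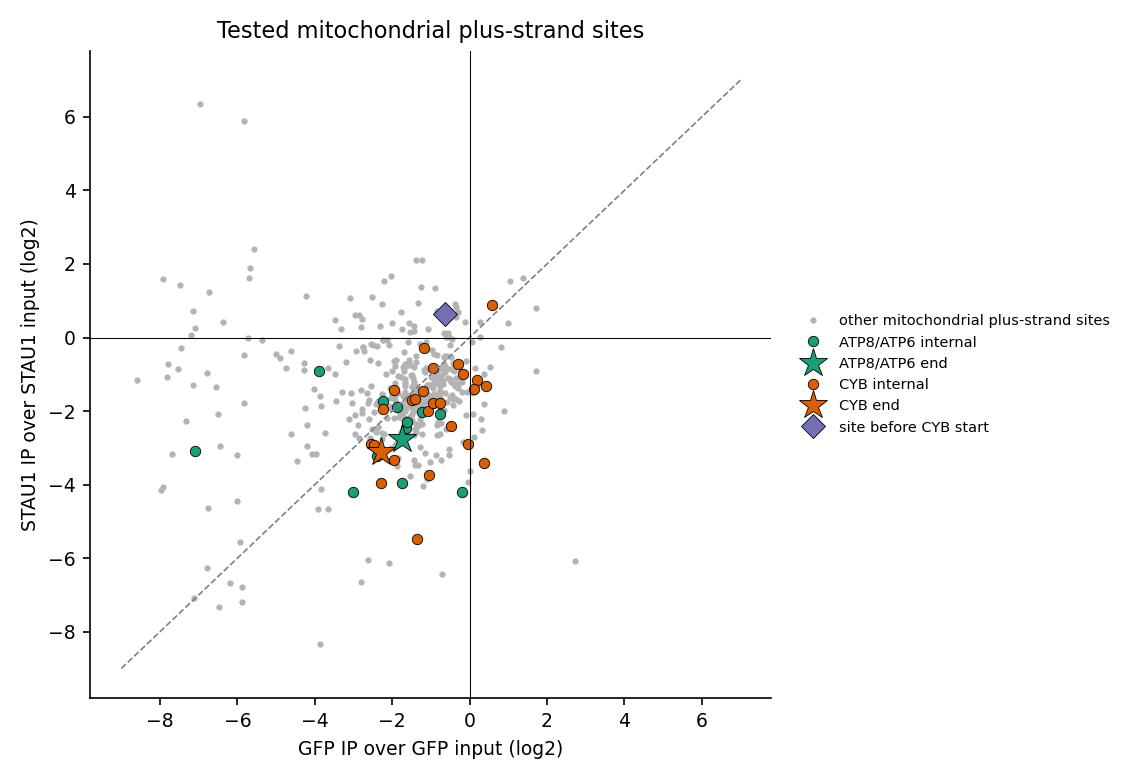
Log2 change in the GFP pull-down (x axis) and in the STAU1 pull-down (y axis), each over its own input, at the tested plus-strand mitochondrial sites; stars are the ATP6 and CYB ends, circles internal members, the diamond the site before the CYB start, grey dots other sites and the dashed line equal change. Most members lie in the lower left, both ends lie below the line, and the diamond (0.63 with STAU1, -0.63 with GFP) lies above it.

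The 6 internal sites with the most input reads were named in each window. In the ATP window, 8979 in the ATP6 frame fell from 26.2 and 18.6 CPM in the STAU1 inputs to 4.33 and 3.79 CPM in the pull-downs (log2 change -2.46 ± 0.50, n = 2 per group; edgeR adjusted p = 0.00448). In the same frame, 8663 changed by -4.20 ± 0.91 (edgeR adjusted p = 0.00736), 9104 by -4.21 ± 1.01 (0.0152) and 9134 by -3.95 ± 1.10 (0.0373). At 9104 the STAU1 IP libraries held 0 and 1.81 CPM against 23.5 and 10.5 CPM in the inputs, so its fitted value rests on few reads. The same holds for 8663, with 2 and 7 reads in the STAU1 IP libraries, and for 9134, with 0 and 8. The 2 named sites in the ATP8 frame, 8443 and 8491, had values of -1.73 ± 0.71 and -2.02 ± 0.64 and did not pass (edgeR adjusted p = 0.188 and 0.0737). None of these 6 sites passed with GFP, where their log2 values ran from -3.01 at 8663 to -0.19 at 9104.

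In the CYB window, 14746 led the list and 5 sites in the frame followed. The site at 15057 changed by -1.69 ± 0.36 with STAU1 (edgeR adjusted p = 0.00644, n = 2 per group) and by -1.48 ± 0.38 with GFP (0.0244). The site at 15136 changed by -1.42 ± 0.40 with STAU1 (edgeR adjusted p = 0.0417) and by -1.95 ± 0.46 with GFP (0.0135), the larger value being the GFP one. The other 3, 14869, 15602 and 15004, had STAU1 values of -0.98, -1.77 and -0.72 that did not pass (edgeR adjusted p = 0.0834, 0.0618 and 0.324). The site at 14869 stood at 28.3 and 29.9 CPM in the GFP IP libraries and 31.4 and 33.9 CPM in the GFP inputs, nearly the same level.

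With the reading frame split into 4 equal stretches, CYB internal reads had log2 ratios of STAU1 IP to input, from group means of CPM, of -1.12, -2.18, -1.70 and -1.57 from start to end. With GFP they were -0.33, -1.65, -0.34 and -1.55. Neither series rose or fell steadily along the frame. The stretches were chosen after the values had been seen and were not tested.

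By level across the 8 libraries, the sites outside both windows most like the ATP6 end were chromosome 17 position 37360973, plus strand (Pearson r = 0.997 on log2 CPM, of 6209 sites), chromosome 14 position 36341168, plus strand (0.992), and mitochondrial position 12138 (0.991). Those most like the CYB end were the same chromosome 17 site (0.997), 12138 (0.9945) and chromosome 2 position 219137668, plus strand (0.993). The mitochondrial site 12138 changed by -2.83 ± 0.21 with STAU1 and -1.89 ± 0.20 with GFP (edgeR adjusted p = 2.84e-07 and 9.84e-06, n = 2 per group), and its double ratio was -0.95 ± 0.27 (0.137). All 3 of its values lay close to those of the ATP6 end. For 14746, added after its values were seen, the most alike site was chromosome 19 position 46030238, plus strand (0.981). The mitochondrial site 5900 ranked 4 (0.974), with log2 changes of 0.94 ± 0.17 with STAU1 and -1.34 ± 0.17 with GFP and a double ratio of 2.29 ± 0.24, all past the threshold (edgeR adjusted p = 0.0015, 5.11e-05 and 0.000236, n = 2 per group).

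In the cell fractions the ATP6 end was far below even between polysomes and cytoplasm. There was 1 library per genotype and fraction, so no test was possible and the intervals are 95% counting intervals. At the ATP6 end, wild-type cells had 28628 CPM in cytoplasm and 7585 CPM in polysomes, and knockout cells 20829 and 4059 CPM. Polysome over cytoplasm came to a log2 ratio of -1.92 (interval -1.94 to -1.89) in wild type and -2.36 (-2.38 to -2.33) in the knockout. Knockout minus wild type was -0.44 (-0.48 to -0.41). The same difference had a median of -0.31, and ran from -1.32 to 0.80, over 30 other plus-strand mitochondrial sites with at least 50 reads in each fraction library.

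The CYB end was held nearer to even. At 15888 wild-type cells had 7802 CPM in cytoplasm and 4897 CPM in polysomes, and knockout cells 5398 and 3695 CPM. The log2 ratio was -0.67 (-0.70 to -0.64) in wild type and -0.55 (-0.58 to -0.51) in the knockout, and knockout minus wild type was 0.12 (0.08 to 0.17). With library totals in place of TMM scaling, the end sums gave -1.66 and -2.16 for ATP6 and -0.42 and -0.35 for CYB. The number of ATP6-end reads per CYB-end read was 3.67 in wild-type cytoplasm and 3.86 in knockout cytoplasm, and it fell to 1.55 and 1.10 in the polysomes. These ratios need no scaling between libraries.

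The site before the CYB start was the one member with at least 50 reads in each library that was higher in polysomes in both genotypes. It stood at 2942 CPM in cytoplasm and 3979 CPM in polysomes of wild-type cells, and at 3256 and 4165 CPM in the knockout. The log2 ratio was 0.44 (0.39 to 0.48) in wild type and 0.36 (0.32 to 0.39) in the knockout, with a difference of -0.08 (-0.14 to -0.03). Per read at the CYB end it gave 0.377 reads in wild-type cytoplasm, 0.603 in knockout cytoplasm, 0.812 in wild-type polysomes and 1.13 in knockout polysomes. In the knockout polysomes it thus outnumbered the CYB end.

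**Figure D4:**
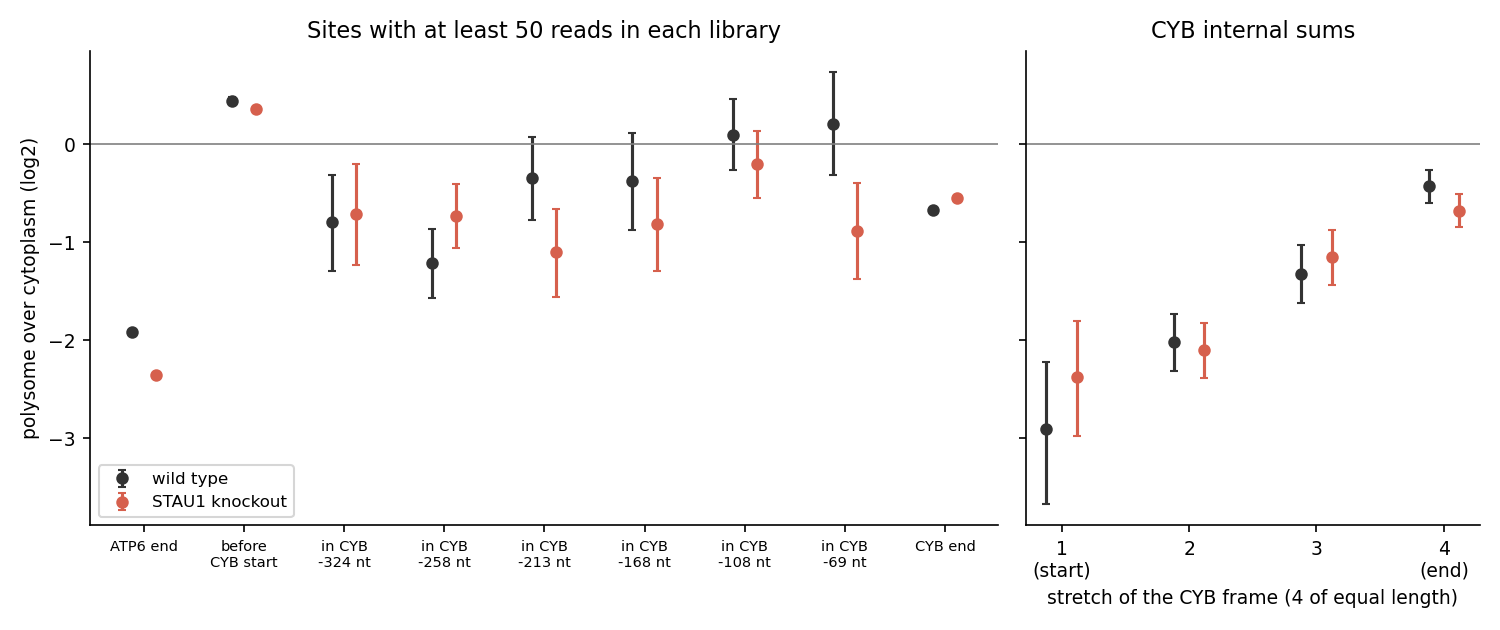
Log2 ratio of polysome to cytoplasm (TMM-scaled counts, 1 library each) at the 9 members with at least 50 reads in each library (left; labels in nt are distances from the CYB coding end) and for internal reads summed over 4 equal stretches of the CYB frame (right); black is wild type, red is STAU1 knockout, and bars are 95% counting intervals. The ATP6 end is lowest on the left (-1.92 and -2.36), the site before the CYB start is above 0, and the stretches rise from start to end.

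At least 50 reads in each fraction library were reached by 9 of the 42 members. The minimum held for the polysome libraries too, so members with few polysome reads were not counted, whatever their cytoplasmic level. Of these, 2 were past 2-fold lower in wild type and 0 higher, where the background over 4766 sites was 5.77% and 2.6%. In the knockout 2 were lower and 0 higher, with a background of 4.68% and 1.72%. The ATP6 end was past 2-fold lower in both genotypes, the site at 15630 in wild type (-1.21) and the site at 15675 in the knockout (-1.10). The 30 other plus-strand mitochondrial sites at this depth had medians of -1.70 in wild type and -2.26 in the knockout, with 21 and 23 past 2-fold lower, against -0.38 and -0.73 for the 9 members. These counts and medians describe only sites that kept 50 reads in polysomes and do not stand for all members. Internal sums of all members had log2 ratios of -1.08 and -1.19 inside the CYB frame (wild type and knockout). In the ATP window they were -2.42 and -2.66.

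Knockout minus wild type was past 2-fold at 1 of the 9, the internal CYB site 15819, and lower there (background 0.839% lower and 0.713% higher). It was 21.7 CPM in wild-type cytoplasm and 24.9 in wild-type polysomes, and 29.3 and 15.9 CPM in the knockout. The difference was -1.09 with an interval of -1.77 to -0.40, from 56 to 91 reads per library. It has no replicate check.

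Internal CYB reads changed steadily along the frame in the fractions. From the first to the last of the 4 stretches, polysome over cytoplasm had log2 values of -2.91, -2.02, -1.32 and -0.43 in wild type and -2.37, -2.10, -1.15 and -0.68 in the knockout. In wild type the intervals of the first and last stretch were -3.67 to -2.22 and -0.60 to -0.26, which do not overlap. In the knockout those of the first and last were also apart (-2.98 to -1.81 and -0.84 to -0.51). The knockout intervals of the first and second stretch overlapped, the second being -2.38 to -1.82. The first stretch held only 20 polysome reads in wild type and 32 in the knockout. Over the whole frame the internal sum was -1.08 (-1.21 to -0.96) in wild type and -1.19 (-1.31 to -1.07) in the knockout. In the ATP window, the part of the frames nearer the start gave -3.31 and the part nearer the end -1.28 in wild type, and -3.19 and -2.07 in the knockout, from 28 to 277 reads per sum. These stretches, too, were chosen after the values had been seen.

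The ATP6 end held nearly all reads of its window in every fraction. Its share of the window's reads was 99.5% in wild-type cytoplasm and 99.6% in wild-type polysomes, and 99.5% and 99.6% in the knockout. The CYB end share over frame and end was 93.0% in wild-type cytoplasm and 94.7% in wild-type polysomes. In the knockout it was 91.4% and 94.3%. In both genotypes the polysomal share was the higher one. With 14746 counted the order turned: the CYB end share was then 68.9% in cytoplasm and 53.6% in polysomes of wild-type cells, and 58.9% and 45.8% in the knockout.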

How the data were processed

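Per the submitters' processing notes, alignment used STAR and hg19; its version, the clustering of sites and read filters are not given in the sources used here. As deposited by the authors, values are unnormalized read counts of poly(A) site clusters, in 1 table for the 8 pull-down and input libraries and 1 for the 4 fraction libraries. Members and lists were chosen with earlier results of these data known. The coding ends were placed 1 and 32 nt before the window ends, from the known gene borders in hg19, and the starts from RefSeq coding lengths of 207, 681 and 1141 nt, tables of GRCh38.p14 whose coordinates were not used.

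Counts were tested in edgeR 4.0.16 (R 4.3.3): quasi-likelihood fit of 4 group means with 4 residual degrees of freedom across 8 libraries, TMM factors, the filterByExpr minimum by group, Benjamini-Hochberg adjustment over 33744 sites, threshold 0.05. The fit was also run on simulated data, with no outcome given here. Sums of sites replaced their sites in the whole table. Shares were tested by exact permutation (scipy 1.17.1). Fraction ratios were TMM-scaled, with exact counting intervals at 95% and a minimum of 50 reads per library. Named were the tested end sites, the 6 internal sites per window with most input reads, members past the threshold in the double ratio or between inputs (there were 0), and the 5 most alike sites with an average log2 CPM of at least 4, of which the first 3 are given; other named sites were chosen after their values were seen. Alternatives covered scaling, the read filter, DESeq2 1.42.0, a replicate block, each library left out, the end zone and the read minimum.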

Additional observations from a re-analysis of the deposited data

Results flagged for a closer look

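Polysome over cytoplasm had opposite signs in the 2 genotypes at 2 of the 9 members that reached 50 reads in each fraction library, both inside the CYB frame. At 15780 the log2 ratio was 0.09 in wild type and -0.21 in the knockout, a difference of -0.30 (95% counting interval -0.78 to 0.18). At 15819 it was 0.20 and -0.88, a difference of -1.09 (-1.77 to -0.40). With 1 library per genotype and fraction, neither difference was tested.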

How the results depend on the processing

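Of 454 recomputed values of 34 results, 407 counted as unchanged, by rules that differed between kinds of result. A log2 change counted so if it kept its direction and its side of the threshold, or changed sign with neither value past it. Counts of calls were allowed some shift: 14 calls with STAU1 and 10 with no read filter counted as unchanged. End shares needed only the same sign. Fraction ratios needed the same sign and a value inside the counting interval. The number of tested members called lower with STAU1 was 14, and 8 to 21 with single libraries left out (8 without STAU1 IP replicate 1); with GFP it was 4, and 2 to 11. The site at 14746 was called higher with STAU1 under library totals and in DESeq2. The double ratio had 0 calls, 1 with RLE scaling, 1 with library totals, 3 with no read filter, 3 in DESeq2, 3 with a replicate block, and 0 to 5 with single libraries left out. The ATP6 end double ratio of -1.03 passed at -1.17 with RLE, -1.21 with library totals, -0.81 with no read filter, -1.17 in DESeq2 and -1.05 with the replicate block, and ranged from -1.29 to -0.62 with libraries left out. The CYB end double ratio of -0.84 passed at -0.61 with no read filter, and ranged from -1.25 to -0.39 with libraries left out. With the replicate block it was -0.87 and lay at the threshold. The site 15888 alone did not pass (edgeR adjusted p = 0.0505), while the sum of the CYB end sites did (0.0498). The CYB internal sum changed with STAU1 by -0.68 with no read filter and by -1.67 without the site before the CYB start, both past the threshold, an alternative chosen after seeing the data. With GFP it no longer passed at -0.49 with library totals, nor without GFP IP replicate 1, in a range of -1.13 to -0.74. The cause was not tested. Deviations of replicate 1 from replicate 2 were little shared between groups, with correlations from -0.191 to 0.101. Whether libraries of the same number came from the same lysate cannot be told from these values.

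Under library totals the polysome ratios in wild type, in the knockout and as their difference were -1.66, -2.16 and -0.50 at the ATP6 end, -0.42, -0.35 and 0.073 at the CYB end, and 0.52, 0.42 and -0.10 for CYB internal reads. The last sum was 0.27, 0.22 and -0.05 under TMM and turned to -1.08, -1.19 and -0.11 without the site before the CYB start, since that site holds most of those reads. Depth limits the GFP pull-downs and the internal sites most.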
